A study of Mus musculus with 577 samples.

Results

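Exon usage was compared between 5 single oocytes and 10 single mouse embryonic stem cells (mESCs). These 15 libraries, of 577 samples in all, were chosen as all columns of the exon count table, whose reads came from amplified cDNA fragments ligated to Y-shaped adapters. For every gene, the reads on each exon were expressed as a percent of the gene's exon reads in that library, which removes differences in gene level and in depth.

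Most mammalian genes give rise to several transcripts by skipping or including internal exons and by ending at alternative last exons or poly(A) sites. Oocytes grow while their chromosomes are active and then rely on stored RNA, whereas mESCs divide rapidly. Because the first strand was primed with oligo-dT, reads gather towards the 3′ end of a transcript, so last exons and short transcripts are seen best.

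The oocytes were cut by laser capture microdissection (LCM) out of ovaries of 8-week-old female mice, which had been frozen, embedded in polyvinyl alcohol, cut at 15 µm, fixed in alcohol and stained with cresyl violet. A section can hold less than a whole oocyte. The study also sequenced 3′ libraries of oocytes, and those with the same 5 numbers are labelled Secondary-antral, a class of follicle stage. No genotype or strain is given in the labels. The mESCs were grown in 2iLIF, which is CHIR99021, a GSK inhibitor, at 3 µM, PD0325901, a MEK inhibitor, at 0.4 µM, and LIF at 1 U/µL. The labels call 5 mESCs fresh (columns S) and 5 LCM (columns SL). The study's own source data conflict with these names, so both sets were pooled, and results that differ between them are given for each. The mESCs of the LCM set were, by the study's methods, cut from stained frozen sections of cell blocks of the same thickness. The labels give 1 extraction for all 15 cells, DRaqL, in which a detergent lyses alcohol-fixed cells and is quenched before reverse transcription. No label ties a cell to a mouse or a culture, so each cell type counts as 1 sample. No test between them was therefore made, and SDs describe the spread between cells. Intervals in brackets are exact Clopper-Pearson 95% intervals of summed reads, which cover counting error only.

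The cell types carried their own markers. H1foo, the oocyte linker histone, stood at 10960 ± 1352 reads per 1000000 exon reads (RPM; mean ± SD, n = 5) in oocytes and 0.47 ± 0.59 (n = 10) in mESCs. Oosp1, an oocyte-secreted protein, stood at 4653 ± 2012 and 0.18 ± 0.24 RPM. All 12 oocyte markers were at least 2-fold higher in oocytes with no overlap between cells. Of 8 pluripotency markers at 20 RPM or more in either cell type, 6 were lower in the same sense, among them Zfp42, at 1.84 ± 2.12 RPM in oocytes and 254 ± 40.7 in mESCs. Pou5f1, a defining marker of mESCs, was near the floor in both, at 14.7 ± 8.83 and 4.13 ± 4.31 RPM. The 10 granulosa markers summed to 50.9 to 440 RPM in oocytes and 4.98 to 164 in mESCs. Amh and Inhba had no read in any oocyte, whereas Inha reached 376 RPM in 1 oocyte. In the 3′ libraries, each of the 5 oocytes correlated best with the oocyte of the same number among 44 (r = 0.349 to 0.674 over 5906 genes, across genes and after centring each gene).

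The oocyte libraries held 5791773 to 7072996 reads on distinct exon intervals, and the mESC libraries 5474421 to 14319447. Although the oocyte libraries were not deeper, more intervals of 1 fixed set were detected in them. They also had reads on more genes, 12612 ± 413 against 9329 ± 582 in mESCs. The part of gene number in the detection of exons was not tested. The set was 295171 intervals of genes with reads in any library. Of these, 12.6% ± 0.42 (SD, n = 5) were above 2 TMM-scaled CPM (counts per 1000000) in oocytes and 10.1% ± 1.00 (n = 10) in mESCs. The oocyte values ran from 12.2% to 13.3% and the mESC values from 8.57% to 11.4%, so the cell types did not overlap. With every library thinned to the shallowest, the values were 12.6% ± 0.41 and 10.0% ± 0.92.

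Reads also lay nearer the 3′ end in oocytes. Among 1558 genes with 100 reads or more in each of the 15 libraries, the median share on the 3′-most exon interval was 31.3% ± 1.89 in oocytes and 26.2% ± 1.65 in mESCs. The lowest oocyte was at 29.5% and the highest mESC at 28.9%. The mESCs labelled LCM were at 24.0% to 26.1% and those labelled fresh at 26.6% to 28.9%. Counted only over intervals that overlap no other interval of the gene, the difference was 10.7 percentage points, against 5.07 with all intervals.

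**Figure D1:**
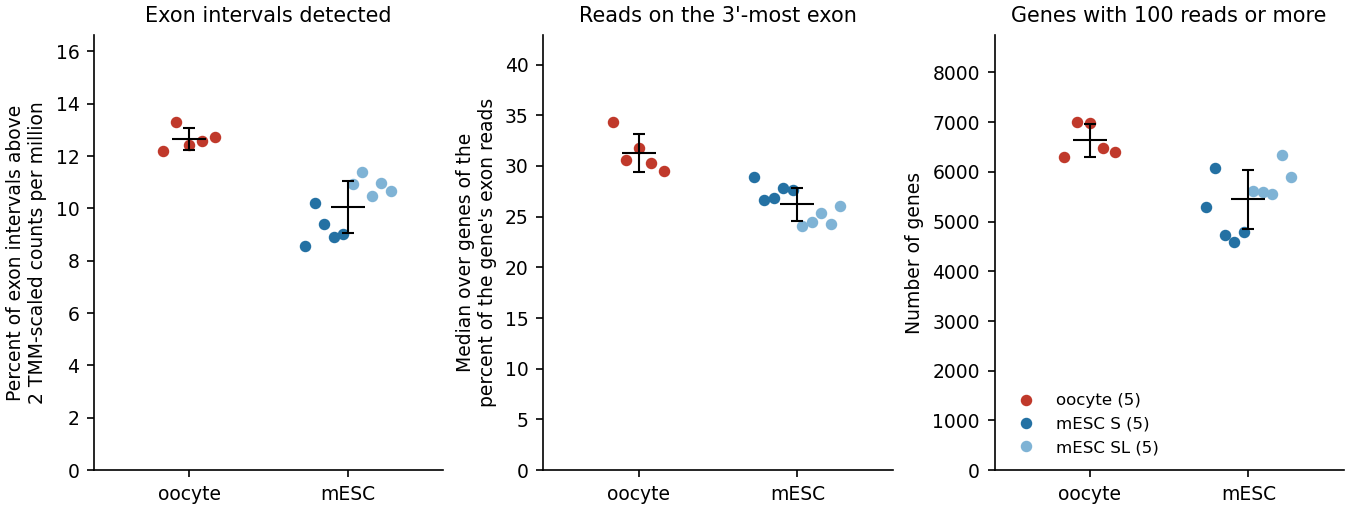
Each point is 1 cell, and the bars are the mean and SD over the 5 oocytes or the 10 mESCs. The left panel gives the percent of exon intervals detected, the middle panel the median share of a gene's reads on its 3′-most exon, and the right panel the number of genes with 100 reads or more; in the left and middle panels all oocytes lie above all mESCs.

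The exon profiles of the cell types stood apart. The distance between a pair of cells was taken as the share of a gene's reads that would have to move to another exon to make the pair equal, as a median over genes. It was 9.0% for the median of 10 oocyte pairs, 9.6% for 45 mESC pairs and 14.5% for 50 pairs of an oocyte and an mESC. Pairs across the cell types ran from 11.7% to 22.2%, and the farthest oocyte pair was at 12.4%, so the ranges overlapped a little. Within the mESCs, 20 pairs with the same label had a median of 8.6% and 25 pairs with different labels 11.1%.

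Of 33414 exon intervals in the 1558 genes, 59 had a mean share at least 20 percentage points higher in oocytes (0.177%) and 47 one at least 20 points lower (0.141%). The values of all cells were separate for 33 of the higher (0.0988%) and 29 of the lower intervals (0.0868%). These lay in 47 genes, 3.02% of those compared. Large differences were thus a small part of the table, and the median absolute difference was 0.25 points. Against the mESCs labelled fresh alone, 41 intervals were higher and 60 lower without overlap, and against those labelled LCM alone, 126 and 50. Of the 62 intervals, 37 were the 3′-most of their gene (23 higher, 14 lower), 24 were internal (10 higher, 14 lower) and 1 was the 5′-most. No splicing factor of 30 compared, and none of the 4 genes compared of those that the study names for splice isoforms (Rac1, Parl, Serf2 and Cox6b2), was past this threshold. Among 15 cytoskeleton, trafficking and signalling genes with well known alternative exons, Pkm alone was, by 24.1 points, and against the mESCs labelled fresh alone its difference was 17.1, below the threshold. H1foo, Oosp1, Lsm14b and Trp53bp1 had too few reads in mESCs to be compared.

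In 23 of the 62 intervals, the exon overlaps an exon of another gene. Whether the counting used strand is not stated, so reads of either gene cannot be told apart there. With such intervals removed and the shares recomputed, 23 were higher and 17 lower without overlap.

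**Figure D2:**
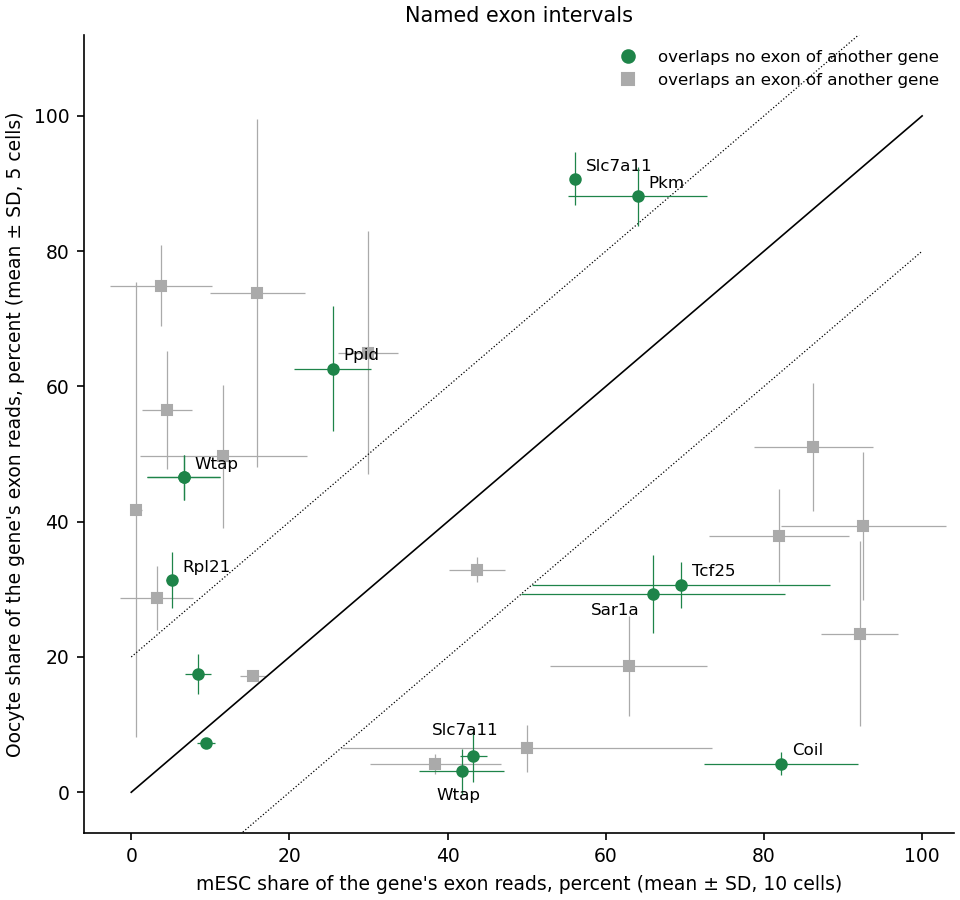
Mean share of the gene's exon reads in mESCs (x, percent, 10 cells) and oocytes (y, percent, 5 cells) for 29 named intervals, with bars of 1 SD. The solid line marks equal shares and the dotted lines 20 points; labelled circles overlap no exon of another gene, and squares do.

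The clearest exchange between exons was in Wtap, which encodes a regulatory subunit of the complex that writes N6-methyladenosine into RNA. Wtap lies on the reverse strand of chromosome 17 and has a proximal last exon, exon 6 of Wtap-204 (GRCm38 chr17:12972685-12975474), and a distal one, exon 8 of Wtap-203 (chr17:12966796-12968051). Wtap-201 ends 3 bases short of the latter and has the same reads. Neither overlaps an exon of another gene. The proximal last exon begins with a 179-base coding exon that Wtap-203 also holds as an internal exon (chr17:12975296-12975474), and Wtap-204 reads on past its end. The sequences show where the coding parts of the transcripts part. Both are from GENCODE M21, 5′ to 3′ along the transcript. Lower-case letters are the last 30 bases of the shared exon, and capitals mark the bases that follow, which are 4 bases to the stop codon in Wtap-204 (chr17:12975292-12975295) and the next exon of 155 bases in Wtap-203 (chr17:12969405-12969559).

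Wtap-204: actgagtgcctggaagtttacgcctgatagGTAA
Wtap-203: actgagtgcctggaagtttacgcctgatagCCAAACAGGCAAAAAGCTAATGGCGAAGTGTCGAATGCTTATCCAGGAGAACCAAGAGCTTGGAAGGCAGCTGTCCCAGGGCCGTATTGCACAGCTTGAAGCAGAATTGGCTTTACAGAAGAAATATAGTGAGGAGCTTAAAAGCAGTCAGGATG

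Of the reads on both last exons, the distal exon held 98.2%, 91.5%, 99.2%, 96.8% and 83.1% in the 5 oocytes. In the 10 mESCs it held 3.53% at the lowest, 10.4% at the median and 31.7% at the highest. The cell types therefore used opposite last exons in every cell (93.7% ± 6.66 and 13.8% ± 9.46). The summed reads were 2884 of 3040 in oocytes, or 94.9% [94.0 to 95.6], and 736 of 5067 in mESCs, or 14.5% [13.6 to 15.5]. The shared exon held 2 of these reads in oocytes and 95 in mESCs, and without them the difference was 79.8 points, against 80.0 with them. The distal interval held 46.6% ± 3.32 of all Wtap exon reads in oocytes and 6.6% ± 4.59 in mESCs, and the proximal one 3.1% ± 3.31 and 41.8% ± 5.34. Reads are counted on each interval they overlap. With overlapping intervals merged, the difference of the distal exon was 79.5 points, against 39.9 without.

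Slc7a11 encodes xCT, the light chain of the cystine transporter. Reads sat at different places in the 7429-base exon that ends its coding transcript Slc7a11-201 (chr3:50364938-50372366, reverse strand). A 270-base interval inside it (chr3:50370530-50370799), annotated as the first exon of the noncoding Slc7a11-203, held 1.26%, 5.94%, 13.1%, 2.65% and 7.25% of the last exon's reads in the oocytes. In the mESCs it held 69.5% at the lowest, 77.8% at the median and 78.9% at the highest. Reads of the last exon thus fell mainly inside this short interval in mESCs and mainly outside it in oocytes (6.04% ± 4.64 and 77.0% ± 2.81). The summed reads were 108 of 2102 and 4121 of 5440, or 75.8% [74.6 to 76.9] in mESCs. Because each such read is counted on both intervals, the shares of the gene, 90.7% against 56.1% for the last exon and 5.4% against 43.2% for the inner one, count the same shift again. With the overlapping intervals merged, the last exon differed by -2.91 points.

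Other intervals free of a second gene differed in both directions. Ppid, a cyclophilin, had 62.6% ± 9.21 of its exon reads on the 3′-most interval in oocytes and 25.5% ± 4.86 in mESCs. Pkm, the glycolytic enzyme pyruvate kinase, had 88.1% ± 4.34 on its last exon (chr9:59678728-59679375) and 64.0% ± 8.77. In the oocytes the Pkm values were 94.6%, 83.6%, 90.1%, 85.6% and 86.5%, and in mESCs they ran from 49.9% to 76.2%. The 3′-most interval was the more used in the oocytes for both genes. Rpl21, a ribosomal protein gene, had 31.4% ± 4.17 on a 113-base coding exon in oocytes and 5.1% ± 0.70 in mESCs, on 321 and 2783 reads. Multi-mapping reads were counted and ribosomal protein genes have near-identical copies, so the Rpl21 values are uncertain.

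The opposite held for 3 other last intervals. Coil encodes coilin, the scaffold of Cajal bodies, and its last exon held 4.2% ± 1.74 of the reads in oocytes and 82.2% ± 9.74 in mESCs. However, 74.9% ± 5.94 of the oocyte Coil reads lay on an exon shared with another gene, described below. Shares of a gene are complementary, so the low share of the last exon is not a separate result. Tcf25 had 30.7% ± 3.42 and 69.5% ± 18.9, a difference of -52.9 points against the mESCs labelled fresh and -24.8 against those labelled LCM. Sar1a, a GTPase of COPII vesicles, had 29.3% ± 5.76 and 66.0% ± 16.7, a difference of -26.9 against the mESCs labelled fresh and -46.4 against those labelled LCM. The intervals of Tcf25 and Sar1a have no match with the same ends in GENCODE M21.

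The other named intervals with large differences lay on exons shared with another gene. In Coil, 74.9% ± 5.94 of the oocyte reads, against 3.8% ± 6.46 in mESCs, were on a 233-base noncoding exon (chr11:88972621-88972853) that overlaps 2210409E12Rik on the same strand. Stk16, a kinase, had 73.9% ± 25.7 and 15.9% ± 6.01 on its last exon, which overlaps Tuba4a, an alpha-tubulin gene on the other strand at 402 ± 70.2 RPM in oocytes and 225 ± 189 in mESCs. Tbl3 had 56.5% ± 8.77 and 4.5% ± 3.13 where Noxo1 lies on the other strand, at 315 ± 82.0 and 2.45 ± 3.94 RPM. For Stk16 and Tbl3 the neighbour's level was higher where the share was, and its part in the result was not tested. Prickle3 had 39.4% ± 10.9 of its reads on the 3′-most exon in oocytes and 92.6% ± 10.5 in mESCs, and the antisense neighbour Plp2 was at 15.2 ± 18.1 and 632 ± 251 RPM. In Tmem234 (41.8% ± 33.6 and 0.6% ± 0.74) the exon overlaps Ccdc28b, at 366 ± 243 RPM in oocytes and 30.1 ± 41.5 in mESCs. Sqstm1, the autophagy receptor p62, had 65.0% ± 18.0 and 30.0% ± 3.79 where Mrnip lies on the other strand, at 64.7 ± 32.5 and 11.1 ± 9.46 RPM. For these intervals of Prickle3, Tmem234 and Sqstm1 too, the neighbour's level was higher where the share was, and its part was not tested. An 842-base Prickle3 interval that also overlaps Plp2 went the other way, with 28.7% ± 4.73 and 3.20% ± 4.58. Intervals of Tulp4, Med21, Pusl1, Ndfip2, Nucks1, Mrps34 and Dnah8 also overlap an exon of another gene, with differences of 34.3 to 68.7 points in size. That of Dnah8 was -25.5 against the mESCs labelled fresh and -61.6 against those labelled LCM.

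Alternative ends of 1 last exon were then read over all genes. A pair was 2 annotated last exons with the same 5′ end and 3′ ends at least 200 bases apart, where the longer is the gene's 3′ end and its extension meets no exon with another 5′ end. Reads beyond the shorter end were taken as a percent of the longer exon's reads. Of 4164 pairs, 331 had 50 reads or more in every library. A larger part of the reads lay beyond the shorter end in oocytes, with a median of 49.5% against 36.7% in mESCs. The median of the differences within pairs was smaller, at 2.89 points, and 220 of 331 pairs had the higher mean in oocytes. It was 1.69 points against the mESCs labelled fresh and 4.36 against those labelled LCM. Every oocyte also had a higher share on 3′-most intervals than every mESC. The part of this 3′ bias in the reads beyond the shorter end was not tested. The values did not overlap, with a difference of 20 points or more, for 12 pairs higher (3.63%) and 2 lower (0.604%) in oocytes.

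Among the 12, Pdcd6ip, whose product ALIX acts with the ESCRT machinery, had 50.9% ± 16.4 beyond the shorter end in oocytes and 8.72% ± 11.6 in mESCs. Skp1a, an SCF ubiquitin ligase subunit, had 76.6%, 73.2%, 72.8%, 75.3% and 67.7% in oocytes and 25.9% to 51.4% in mESCs. Calr, the chaperone calreticulin, had 87.3% ± 3.61 and 58.4% ± 5.86. All oocytes lay above all mESCs in these genes. Cript, Srp9, Noc4l, Cdk2ap1, Bsg, Ddx5, Immt, Rab7 and Ppid made up the rest, with differences of 20.8 to 37.7 points. The 2 pairs in the other direction were Ncl and Stard4. Ncl, which encodes nucleolin, had 10.6% ± 7.32 beyond the shorter end in oocytes and 63.6% ± 12.9 in mESCs. Stard4, a sterol transfer protein, had 74.1% ± 18.6 and 99.2% ± 2.09. Oocyte 10 had the highest value in 9 of the 12 pairs and also the highest share on 3′-most exons (34.4%). Without it, 8 pairs were higher and 1 lower. Without oocyte 30, 22 were higher, and without mESC SL06, 4 were lower. Against the mESCs labelled fresh, 16 were higher and 10 lower, and against those labelled LCM, 23 and 8.

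**Figure D3:**
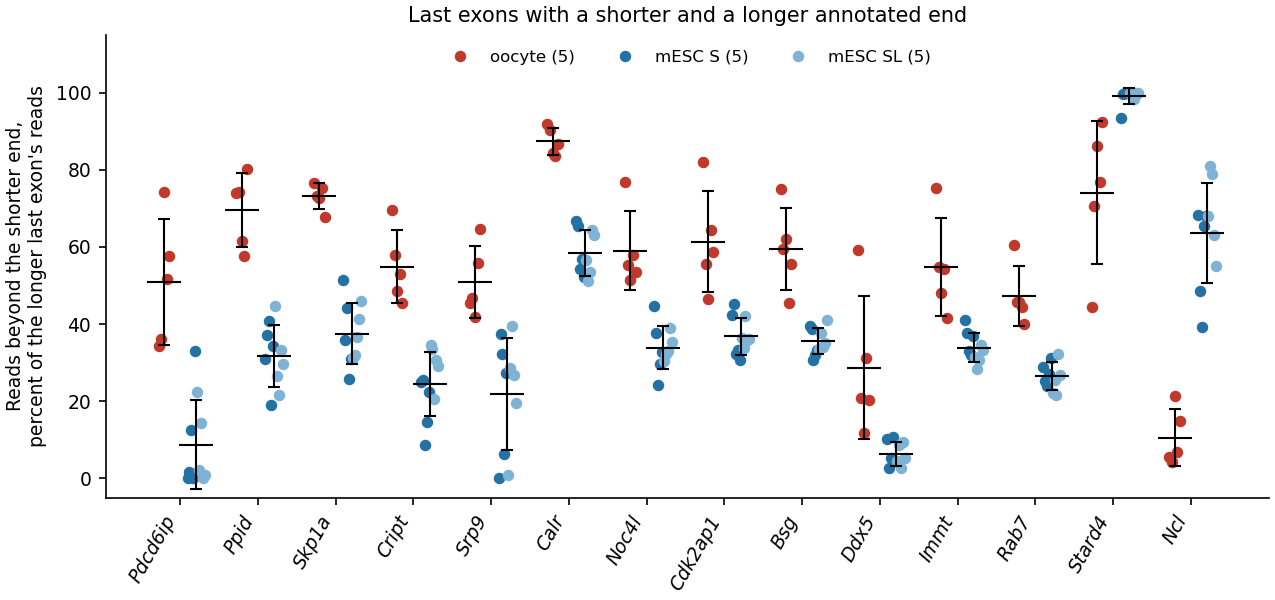
Reads beyond the shorter annotated end, as percent of the reads on the longer last exon, in each of 15 cells. Shown are the 14 genes whose values did not overlap and whose means differed by at least 20 points. Bars are mean and SD; oocytes lie above mESCs in 12 genes and below them in Stard4 and Ncl.

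Both Rac1 and Parl, which the study names for splice isoforms, showed a difference of this kind. Rac1 is a small GTPase that acts on the actin cytoskeleton and Parl a rhomboid protease of mitochondria. In Rac1, the 1624-base form of the last exon (chr5:143505482-143507105, reverse strand, overlapping the antisense gene Daglb) held 82.8%, 76.7%, 74.7%, 83.8% and 82.7% of the reads on its 3472-base form in oocytes. It held 100% in 8 of 10 mESCs, and 86.1% and 87.1% in the other 2. In Parl, the 83-base form held 56.7% ± 8.72 of the reads on the 266-base form in oocytes and 78.6% ± 6.07 in mESCs. The highest oocyte (65.5%) was below the lowest mESC (67.8%). The largest difference in share was -10.8 points in Rac1 and 9.1 in Parl, while Serf2 (1.7) and Cox6b2 (-2.2) differed little.

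**Figure D4:**
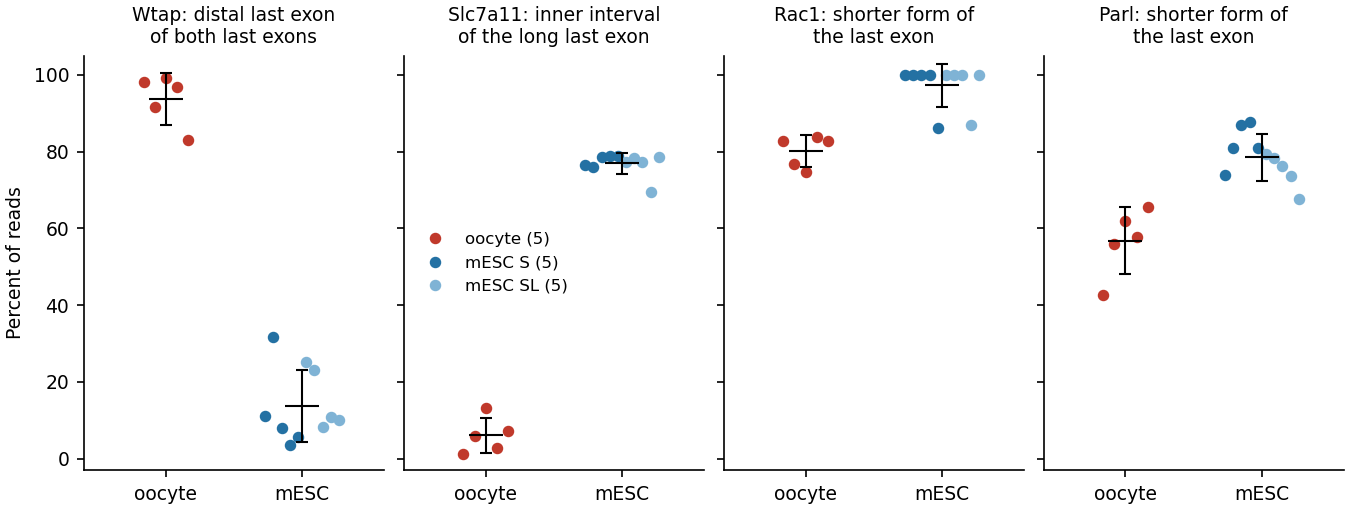
Percent of reads in each cell for 4 last exons: Wtap, distal exon among both last exons; Slc7a11, 270-base interval within the 7429-base exon; Rac1 and Parl, shorter form within the longer. Bars are mean and SD, and the oocytes and mESCs are separate in all 4 panels. Both Rac1 forms overlap another gene.

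Cassette exons, which can be skipped between 2 fixed neighbours, were few at this depth. An internal exon was taken where GENCODE M21 also holds the junction that skips it and where neither it nor its neighbours overlap another gene, and its reads were set against the mean of the neighbours' reads. The 3′ bias and exon length move this ratio too, so it is no inclusion rate and can pass 100%. Of 6254 such exons in 4508 genes, 85 had 20 neighbour reads or more in every library. Their medians were 36.3% in oocytes and 49.0% in mESCs, and the median absolute difference was 6.06 points. The values did not overlap for 1 exon higher in oocytes (1.18%) and 4 lower (4.71%). Without oocyte 17, mESC S05 or mESC SL04 in turn, 2 were higher, and against the mESCs labelled fresh alone, 4.

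The exon sequences are shown for the cassette exons that separated the cells best, and for Rac1 as the study's own example, since their lengths decide whether the reading frame is kept. Capitals mark the cassette exon, and the lower-case letters are 15 bases of each coding neighbour, where these are coding. All are from GENCODE M21 transcripts, 5′ to 3′. Rpn2 is chr2:157323223-157323270 on the forward strand, Add3 chr19:53244310-53244405 on the forward strand, Rac1 chr5:143509597-143509653 on the reverse strand, and Ube2k chr5:65594420-65594548 on the forward strand. All 4 are coding, and their lengths of 48, 96, 57 and 129 bases are whole numbers of codons.

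Rpn2: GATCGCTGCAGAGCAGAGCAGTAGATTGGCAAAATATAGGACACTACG
Add3: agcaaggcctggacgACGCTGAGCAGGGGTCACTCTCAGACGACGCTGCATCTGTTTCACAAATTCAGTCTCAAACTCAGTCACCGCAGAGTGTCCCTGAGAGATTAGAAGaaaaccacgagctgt
Rac1: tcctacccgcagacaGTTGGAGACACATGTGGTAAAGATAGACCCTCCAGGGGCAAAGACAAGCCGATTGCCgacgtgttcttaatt
Ube2k: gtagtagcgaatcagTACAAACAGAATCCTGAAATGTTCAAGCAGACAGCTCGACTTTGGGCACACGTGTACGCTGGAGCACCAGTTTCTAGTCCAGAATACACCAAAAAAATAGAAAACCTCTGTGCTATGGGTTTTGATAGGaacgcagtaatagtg

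Rpn2 encodes ribophorin II, a subunit of the complex that attaches N-glycans. Its 48-base exon had 29, 14, 36, 8 and 17 reads in the 5 oocytes, or 25.8%, 14.4%, 15.8%, 15.4% and 15.4% of its neighbours. In the mESCs it had 4 reads in 1 cell (1.09%) and none in the other 9, although the neighbours held 3732 reads there against 600 in oocytes. The exon was read in every oocyte and nearly absent from mESCs (17.3% ± 4.74 and 0.109% ± 0.345).

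Add3, the gamma subunit of the membrane skeleton protein adducin, was similar on fewer reads. Its 96-base exon had 11, 9, 18, 5 and 23 reads in the oocytes (11.4% ± 6.08) and none in the mESCs. The mESCs held 468 neighbour reads, and a count of 0 allows up to 0.642% there. Of these reads, 278 were in mESC SL04, without which the limit is 1.58%, and 3 mESCs had 2 neighbour reads or fewer. The 57-base exon of Rac1, found in Rac1-202 (the Rac1b form), had 2, 1, 5, 9 and 3 reads in the oocytes (6.90% ± 4.34) and none in mESCs, where 339 neighbour reads in 9 of the 10 cells allow up to 0.885%. Without mESC S02, which had the most of these, the limit is 1.13%. Both exons were thus read in all 5 oocytes and in no mESC, within these limits. They did not reach the minimum of 20 neighbour reads in every library and were taken from the gene list at 100 summed reads.

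The 4 exons lower in oocytes lie in Ube2k, Cdc34, Dpy30 and Med28. The downstream neighbours of all 4 are longer than the exons themselves, by far in Ube2k (chr5:65594875-65598988) and Med28 (chr5:45525153-45529276). Those of Cdc34 and Dpy30 are chr10:79687849-79688394 and chr17:74299474-74299824. The share on 3′-most intervals was higher in oocytes (31.3% ± 1.89 against 26.2% ± 1.65), and its part in these 4 ratios was not tested. Ube2k, a ubiquitin-conjugating enzyme, had 41.4%, 54.1%, 51.1%, 49.5% and 58.9% in oocytes and 79.2% to 142.5% in mESCs. Cdc34, another such enzyme, had 22.7% ± 5.71 on its 135-base exon in oocytes and 35.5% to 49.8% in mESCs. Dpy30, a core subunit of histone H3 lysine methyltransferases, had 69.6% ± 15.9 on its 143-base exon and 106% ± 10.4. Med28, a Mediator subunit, had 31.4% ± 4.89 on its 113-base exon and 48.8% ± 6.70. The exons of Ube2k and Cdc34 hold whole codons and those of Dpy30 and Med28 do not. The other list genes did not separate so clearly. Hnrnpa2b1, itself a splicing regulator, had 71.5% ± 33.2 on its 120-base exon and 28.9% ± 11.9, with 2 mESCs (41.3% and 55.4%) above the lowest oocyte (40.9%). Map3k7 had 18 reads on its 116-base exon in 1 oocyte alone. Myl6 had 66.6% ± 10.9 and 66.4% ± 17.4 on its 144-base exon, with differences of 12.4 points against the mESCs labelled fresh and -11.9 against those labelled LCM. The cassette exons of Tpm3 (79 bases), Mff (75 bases), Add1 (50 bases) and Clta (36 bases) had no read in either cell type, which allows up to 0.167% to 1.35% in oocytes and 0.0285% to 0.58% in mESCs. The 54-base exon of Clta had 12 reads in oocytes and 3 in mESCs.

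**Figure D5:**
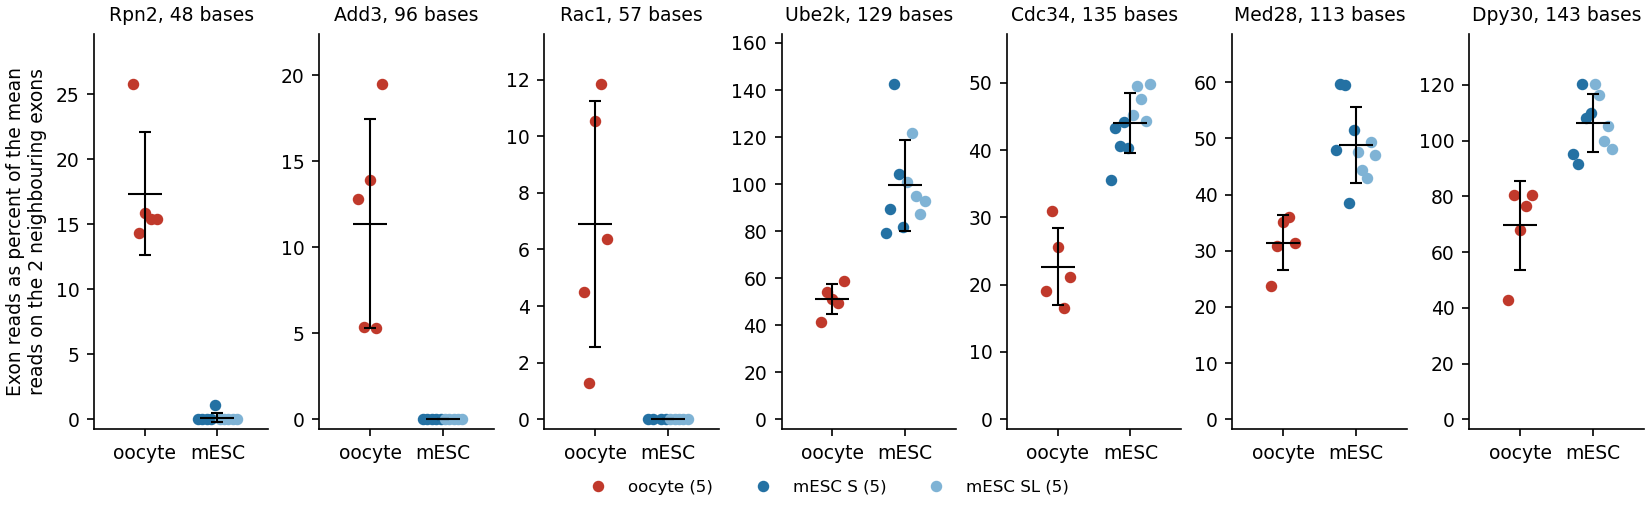
Reads on 7 cassette exons, as percent of the mean reads on the 2 neighbouring exons, in each cell; each panel has its own scale from 0, and bars are mean and SD. The exons of Rpn2, Add3 and Rac1 have reads in all oocytes and in 1, 0 and 0 mESCs, and those of Ube2k, Cdc34, Med28 and Dpy30 are lower in all oocytes.

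The genes that encode splicing factors differed in level. Levels are RPM summed over the exon intervals of a gene, in which reads on overlapping intervals count more than once, and a gene counted as higher or lower at 2-fold or more without overlap between cells. Over 7442 genes at 20 RPM or more in either cell type, 24.6% were higher and 9.04% lower in oocytes. Of 50 splicing factors at this level, 4 were higher and 15 lower. Their median log2 difference was -0.81, against 0.65 over all 7442 genes. The higher ones were Esrp1, an epithelial splicing regulator (719 ± 116 RPM in oocytes and 2.97 ± 7.10 in mESCs), Rbfox2, which binds near neuronal and muscle exons (66.1 to 192 and 0.97 to 32.6), U2af2 and Snrnp70. Esrp1 ran from 602 to 870 RPM in oocytes and from 0 to 22.6 in mESCs.

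The SR and hnRNP proteins made up most of the lower group. Srsf3 stood at 214 ± 53.9 RPM in oocytes and 1532 ± 279 in mESCs, Srsf6 at 35.3 ± 17.1 and 550 ± 243, and Hnrnpf at 208 ± 31.6 and 1355 ± 262. Snrpb, a core spliceosome protein, stood at 73.5 ± 54.9 and 773 ± 199. In these 4 genes the highest oocyte was below the lowest mESC. Of 8 DNA methylation and demethylation genes, 4 were higher and none lower (Dnmt1, Dnmt3a, Uhrf1 and Tet3), and of 22 genes of maternal RNA storage, translation and decay, 12 were higher and 2 lower. Of 39 cytoskeleton, trafficking and signalling genes with well known alternative exons, 10 were higher and 4 lower. That is near the shares over all 7442 genes, 24.6% higher and 9.04% lower, so this list did not stand out. RPM is a share of the reads on exons, so in these values fewer transcripts per cell cannot be told apart from more RNA of other genes.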

How the data were processed

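Single-cell cDNA was primed with oligo-dT, amplified and sequenced in pairs of 75 bases. The deposited values are whole-number read counts per exon, which the authors made with fastp 0.20.0, cutadapt 1.16, HISAT2 2.1.0 on GRCm38 and featureCounts 2.0.1, counting multi-mapping reads. Whether strand was used in counting is not given in the sources used here. Of 10 cells per type sequenced, the study kept the 5 with most mapped reads.

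The 392121 exon rows were reduced to 332402 distinct intervals of 22159 genes (59719 rows repeat another, and 51.1% of intervals overlap another of the gene). Symbols came from a gene name table (21728 matched), and 96.3% of intervals have the same ends in GENCODE M21. Shares were compared over genes with 100 reads or more in all 15 libraries, by size (20 points) and by non-overlap of cells. Named intervals are the 6 per direction and place in the gene (5′-most, internal, 3′-most) with the largest difference that pass both, without symbols of the form Gm or Rik, the genes the study names for splice isoforms, and listed genes that pass both, of which 1 interval is not reported here. Genes in the last-exon pairs and the cassette exons were named after their values were seen, that is, those past the thresholds and the listed genes. The members and gene lists were chosen with earlier results of these data known. TMM factors came from edgeR 4.0.16, and size factors of DESeq2 1.42.0 were an alternative. Other computations used R 4.3.3, python 3.11.15, numpy 2.4.6 and pandas 2.3.3. The share code was tested on simulated data. Limits for a count of 0 are 3 counts of the neighbour reads. Junction counts were not used here, since the oocyte table gives no junction positions.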

Additional observations from a re-analysis of the deposited data

Results flagged for a closer look

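Values in 114 groups of cells were looked at for a cell far from the others of its type, and 12 stood out; chance gives about 1 in 20. Oocyte 10 was high in 4 of them. It had 22.7% on the 3′-most Parl interval (others 15.7% to 16.7%), 25.8% on the 48-base Rpn2 exon (others 14.4% to 15.8%), and 76.8% and 60.6% of the reads beyond the shorter ends of Noc4l (others 51.5% to 57.8%) and Rab7 (others 39.9% to 45.8%). Oocyte 17 was low for the 233-base Coil exon (64.6%, others 75.6% to 79.7%), and oocyte 21 was high for the last exon of Prickle3 (58.7%, others 31.6% to 35.9%).

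Among the mESCs, cell S10 was high for the last exon of Stk16 (32.2%, others 10.5% to 16.9%) and had the only reads on the Rpn2 exon (1.09% of its neighbours). Cell SL06 was low for the 270-base Slc7a11 interval, as a share of the gene (38.5%, others 43.2% to 44.1%) and of the last exon (69.5%, others 76.0% to 78.9%). Cell SL02 was low for Nucks1 (68.5%, others 81.1% to 94.4%), and cell S02 for the longer Stard4 end (93.4%, others 98.4% to 100%).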

How the results depend on the processing

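Intervals at least 20 points higher and lower, then the same without overlap, numbered 59, 47, 33 and 29. They numbered 133, 130, 63 and 53 at 30 reads per gene, 16, 18, 9 and 13 at 300, and 350, 383, 102 and 107 at 1. They numbered 420, 153, 166 and 70 at 10 points and 20, 29, 13 and 18 at 30 points. Over intervals overlapping no other of the gene they were 30, 14, 19 and 9. Without the 3′-most interval 32 were higher, 31 lower and 20 higher without overlap, and per kb 106 were lower, 46 of them without overlap. Against the mESCs labelled fresh 79 were lower, 60 without overlap. Against those labelled LCM the counts were 166, 83, 126 and 50. Merging and leaving out other genes' exons were chosen after seeing the data. Merging overlapping intervals gave 101 higher, 52 without overlap, and intervals free of other genes gave 25 lower, 17 without overlap. Share of summed reads and thinning stayed within 1.5 times. Leaving out 1 cell gave 55 to 76, 49 to 57, 30 to 44 and 27 to 36.

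The 3′-most share differed by 5.07 points, by 2.76 at 1 read per gene and by 10.7 over intervals overlapping no other. Detection differed by 2.59 points, by 9.18 at 1 read or more and by 1.28 above 5 TMM-scaled CPM, and DESeq2 scaling and thinning moved it by less than 1 SD. The distances and the list medians of gene levels moved by less than their spread.

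With overlapping intervals merged, the longer Slc7a11 interval and the 842-base Prickle3 interval changed sign, to -2.91 and -3.56 points. No other named exon interval past 20 points changed sign in the settings run. Leaving out 1 cell cannot move a mean by 1 SD, so that rule tells nothing about the named results there. The Map3k7 cassette exon difference of 12.4 points, for example, fell to 0 without 1 oocyte.

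The cassette exon and last-exon pair measures, the removal of the shared Wtap exon and the limit without 1 cell were chosen after seeing the data. Cassette exons without overlap numbered 1 higher and 4 lower, 4 higher against the mESCs labelled fresh, 2 higher against those labelled LCM, and 1 to 2 higher and 4 to 6 lower when 1 cell was left out. Last-exon pairs numbered 12 higher and 2 lower. They numbered 6 lower at 30 reads, 6 higher and 1 lower at 100 reads, 10 lower against the mESCs labelled fresh, 23 higher and 8 lower against those labelled LCM, and 8 to 22 higher and 1 to 4 lower when 1 cell was left out.

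No paired analysis was possible because no result comes from a test and numbers of oocytes and mESCs name unrelated cells. Low reads limit the cassette exons most. Oocytes came from frozen, stained tissue and the mESCs labelled fresh did not. By the study's methods, oocytes had their own PCR program, and ovary sections were fixed in isopropanol but cell blocks in ethanol. Cell type therefore cannot be told apart from handling and amplification against either set of mESCs.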
